A study of Sus scrofa with 5 samples.

Results

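Mature miRNAs named ssc-miR-15a, ssc-miR-15b, ssc-miR-16, ssc-miR-195 and ssc-miR-497 were examined in small RNA libraries of pig embryos and cultured pig cells. They were chosen by name, and they are 5 of the 411 mature names in the table of reported miRNAs. Each name occurred without an arm ending. All 5 passed the filter of more than 5 reads in at least 3 libraries, which 279 names passed. miR-16 had 2 precursor rows (mir-16-1 and mir-16-2) and each of the other 4 had 1, and reads were summed over the rows of a name.

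The samples were 2 pools of day 7 parthenogenetic blastocysts (BL_1 and BL_2), which develop from electrically activated oocytes without sperm, 1 line of embryonic stem cell-like (ES-like) cells, 1 sample of porcine embryoid bodies (PEBs) and 1 culture of pig fetal fibroblasts (PFFs). ES-like cells were derived from blastocysts and grown with stem cell factor and basic fibroblast growth factor on mitomycin-treated mouse embryonic fibroblasts. PEBs were hanging-drop aggregates of the same ES-like cells without these cytokines. PFFs were obtained from minced fetuses without head, limbs and internal organs. The labels name no genetic modification.

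The miR-15/16 miRNAs and the miR-195/miR-497 miRNAs belong to a single seed family, so they are thought to recognise largely the same target sites. miR-15a and miR-16 are known as repressors of the anti-apoptotic gene BCL2 and of cyclins, and their locus is deleted in many chronic lymphocytic leukaemias. miR-195 and miR-497 are known for restraining cell division, for example in maturing heart muscle, where miR-195 represses the checkpoint kinase CHEK1. The names were looked up in RefSeq annotation of the Sscrofa11.1 assembly, which is not the build used for alignment (Sscrofa10.2), so it was used for neighbourhoods only. There, MIR15A lies beside a miR-16 gene and KCNRG follows. MIR15B lies beside the other miR-16 gene within SMC4, which encodes a condensin subunit. MIR195 and MIR497 are next to each other within LOC102161115 and before BCL6B. RefSeq lists both precursor names for each miR-16 gene, so the mir-16-1 and mir-16-2 rows could not be tied to a neighbour.

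Mature miRNA reads numbered from 113743 in BL_1 to 27071931 in PFFs, and levels are given as reads per 1000000 mature miRNA reads (RPM). Where no read was counted, a level of up to 26.4 RPM in BL_1, 1.08 RPM in BL_2 and 0.471 RPM or less in the cultured libraries is possible (3 reads). The read summary of the study attaches the totals of ES-like cells and PFFs to the opposite libraries. The column names of the count table were followed here, and which of the 2 records is right was not tested. Comparisons of ES-like cells with PFFs rest on this assumption. The 7 fibroblast or mesenchymal markers summed to 709885 RPM in PFFs, of which ssc-miR-21 made up 522808, to 328213 in PEBs, 217014 in ES-like cells, 106219 in BL_2 and 67327 in BL_1. Of these, ssc-miR-21, ssc-miR-143-3p and ssc-miR-145-5p were highest in PFFs, while ssc-miR-199a-5p, ssc-miR-199a-3p and ssc-miR-214 were highest in PEBs and ssc-miR-10b in BL_2. Of 6 pluripotency markers only ssc-miR-371-5p was in the table, with 324635 RPM in BL_1, 296148 in BL_2 and 30.9 in ES-like cells against 0.505 in PEBs and 0.185 in PFFs. ES-like cells were thus above the other cultured libraries and far below BLs, and 1 marker cannot settle the label. Intervals below cover counting error only, not the spread between samples. Amplified reads are not independent molecules, so the intervals may be too narrow even for counting error. In bulk samples fewer cells of a type and less RNA per cell cannot be told apart.

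Among the 5, miR-16 was the most abundant in every library. BL_1 held 24 of its reads and BL_2 942, against 7424 for ES-like cells, 9178 in the PEB library and 21207 in the PFF library. These equalled 211 RPM in BL_1 (95% Poisson interval 135 to 314) and 339 in BL_2 (317 to 361), and among cultured cells 1165 for ES-like cells (1139 to 1192), 579 in the PEB library (567 to 591) and 783 in the PFF library (773 to 794). The BLs averaged 275 ± 90.2 RPM (SD, n = 2), below each cultured library. miR-16 made up from 78.9% of the reads of the 5 in PEBs to 88.9% in BL_1, and it ranked between 59 in PFFs and 84 in BL_1 among the miRNAs of a library.

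miR-15b, the second most abundant of the 5 in every library, is the partner of a miR-16 copy within SMC4. Its reads numbered 3 (BL_1), 221 (BL_2), 1186 (ES-like cells), 1724 (PEBs) and 2245 (PFFs). The level was 26.4 RPM in BL_1 (5.44 to 77.1) and 79.4 in BL_2 (69.3 to 90.6), and it was 186 for ES-like cells (176 to 197), 109 in the PEB library and 82.9 in the PFF library (79.5 to 86.4). ES-like cells stood highest. The interval of BL_2 overlapped those of BL_1 and PFFs. The ratio of PFFs to BL_2 was 1.04 (0.909 to 1.20), so BL_2 was not distinguished from PFFs. BL_1 and BL_2 were not compared by a ratio, and overlap alone does not show that they were alike.

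miR-15a, the partner of the other miR-16 copy, had no read in either BL library. Its 203 reads in ES-like cells, 311 from PEBs and 1345 from PFFs gave 31.9 RPM (27.6 to 36.6), 19.6 RPM (17.5 to 21.9) and 49.7 RPM (47.1 to 52.4). In RPM PFFs therefore stood highest and PEBs lowest of the cultured libraries. Against the limit of 3 reads over both BL libraries together, 1.04 RPM, miR-15a was at least 30.8-fold higher in ES-like cells, at least 18.9-fold higher in PEBs and at least 48.0-fold higher in PFFs. The limit rests almost wholly on BL_2, because the limit in BL_1 alone, 26.4 RPM, lay above the level in PEBs.

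The miR-195/miR-497 pair was scarcer. miR-195 was counted 6 times in BL_2 and not at all in BL_1, against 126 reads for ES-like cells, 283 in the PEB library and 111 in the PFF library. Its level was 2.16 RPM in BL_2 (0.791 to 4.69), and 19.8 for ES-like cells (16.5 to 23.5), 17.9 in the PEB library (15.8 to 20.1) and 4.10 in the PFF library (3.37 to 4.94). ES-like cells and PEBs overlapped, and so did BL_2 and PFFs, while these 2 pairs of libraries were apart from each other. miR-497 had no read in either BL library and 81 reads from ES-like cells, 134 from PEBs and 83 from PFFs. This gave 12.7 RPM for ES-like cells (10.1 to 15.8), 8.45 in the PEB library (7.08 to 10.01) and 3.07 in the PFF library (2.44 to 3.80), so miR-497 was also lowest of the cultured libraries in PFFs. In RPM miR-15b was lowest there too.

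**Figure D1:**
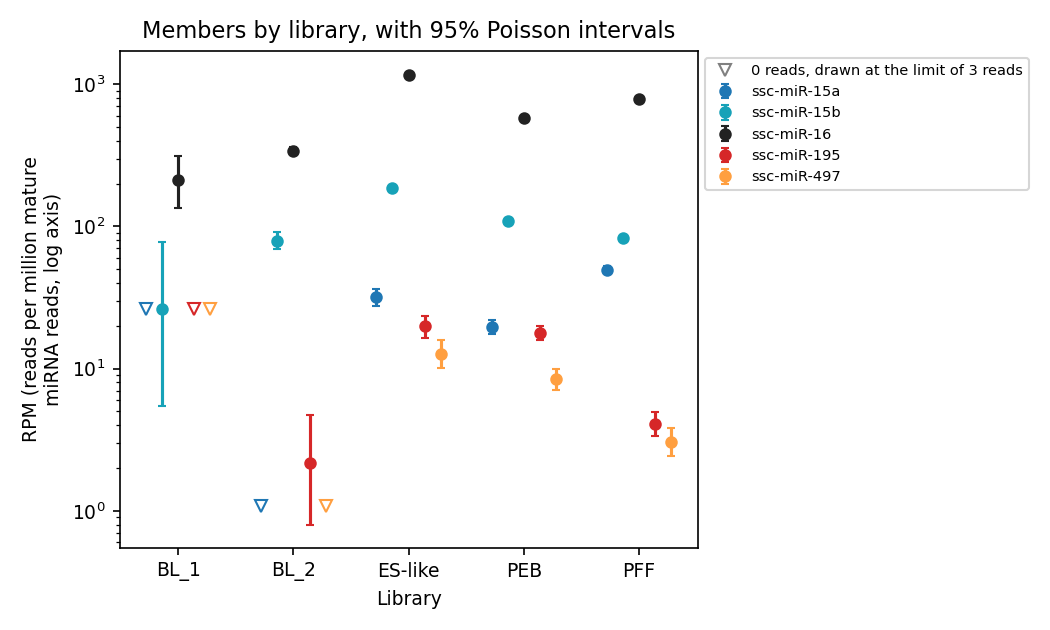
Level of each of the 5 miRNAs in RPM on a log axis, by library, with 95% Poisson intervals and open triangles at the limit of 3 reads where a library had no read. miR-16 lies on top in each library, miR-15a is highest in PFFs at 49.7 RPM, and miR-195 and miR-497 drop to 4.10 and 3.07 RPM there.

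The scale between libraries moved some of these orders. ssc-miR-21 alone took 52.3% of the PFF reads. Levels were recomputed with TMM library sizes, with median-of-ratios size factors, after removal of each library's most abundant miRNA, and with the predicted miRNA loci added to the total. On all 5 scales, RPM included, miR-15a was highest in PFFs, and miR-195 and miR-497 were lower in PFFs than in ES-like cells and PEBs. PFFs held 0.207 times the miR-195 level of ES-like cells in RPM and between 0.365 and 0.481 times on the other 4 scales. For miR-497 the ratio was 0.241 in RPM and 0.425 to 0.560 on the other 4. For miR-15a it was 1.56 in RPM and 2.74 to 3.62 on the other 4. miR-16 flipped between these libraries, with a PFF to ES-like ratio of 0.672 in RPM and from 1.18 to 1.56 on the other 4. miR-15b had its highest level in ES-like cells on 4 scales and in PEBs (86.7 against 80.0 RPM) with predicted loci in the total. Its lowest cultured library was PFFs in RPM, ES-like cells with predicted loci and PEBs on the other 3 scales. With predicted loci ES-like cells also replaced PEBs as the lowest cultured library of miR-15a (13.7 against 15.6 RPM). miR-195 was highest in ES-like cells on 3 scales and in PEBs on the other 2.

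**Figure D2:**
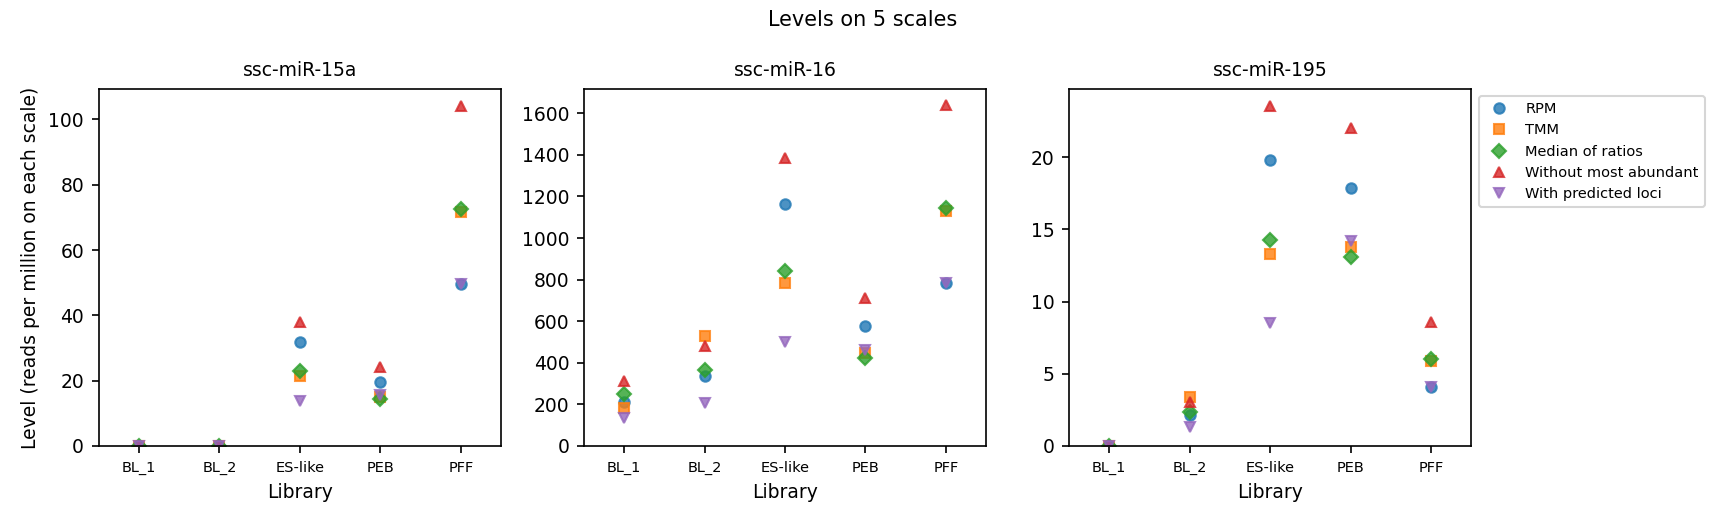
Levels of ssc-miR-15a, ssc-miR-16 and ssc-miR-195 by library on 5 scales, each in reads per 1000000 of that scale's total and marked by its own symbol. miR-15a is highest in PFFs on each scale and miR-195 is lower in PFFs than in ES-like cells and PEBs on each, whereas miR-16 is highest in ES-like cells in RPM (1165) and in PFFs on the other 4.

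Shares within a library do not depend on the scale, and they were used to set the miR-195/miR-497 cluster against the miR-15/16 miRNAs. miR-195 and miR-497 together held 0 of 27 reads of the 5 in BL_1, which allows a share of up to 11.1%. They held 6 of 1169 in BL_2, or 0.513% (95% Wilson interval 0.235 to 1.12%). Their share was 2.29% for ES-like cells (2.01 to 2.62%), 3.59% in the PEB library (3.26 to 3.94%) and 0.776% in the PFF library (0.675 to 0.893%). Each read of the pair was thus matched by 26.9 reads of miR-15a, miR-15b and miR-16 in PEBs, 42.6 in ES-like cells, 128 in PFFs and 194 in BL_2. The intervals of the 3 cultured libraries did not overlap, BL_2 and PFFs overlapped, and BL_1 was too shallow to be placed.

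**Figure D3:**
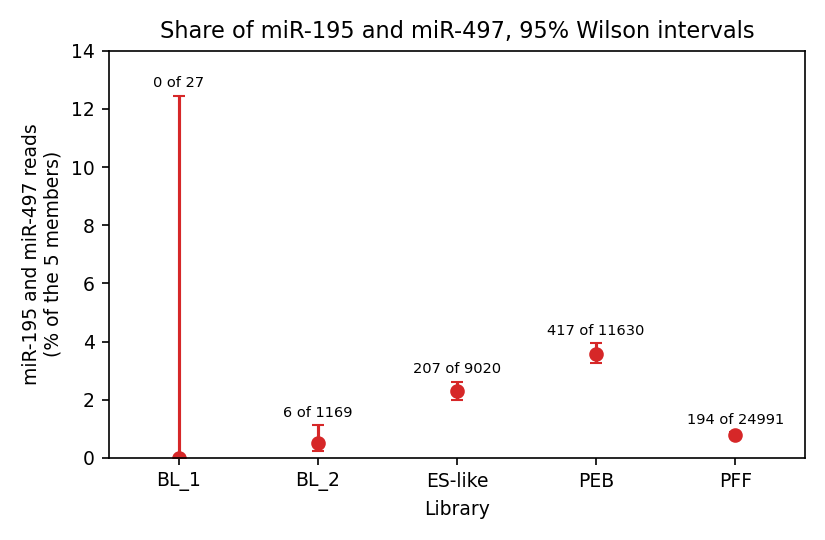
Percentage of the reads of the 5 miRNAs that belonged to miR-195 or miR-497 in each library, with 95% Wilson intervals and the read numbers above. PEBs (3.59%) and ES-like cells (2.29%) lie above PFFs (0.776%) and BL_2 (0.513%), and the interval of BL_1 spans all of them.

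The log2 ratio of the reads of the pair (plus 0.5 read) to those of miR-15a, miR-15b and miR-16 was compared between groups of libraries. It averaged -6.62 ± 1.22 (SD, n = 2) in BLs and -5.72 ± 1.15 (SD, n = 3) in cultured cells, a difference of -0.90 (exact permutation test, two-sided, p = 0.4). Between the 3 libraries of pluripotent cells (BLs and ES-like cells) and the 2 of differentiated cells (PEBs and PFFs) the difference was -0.34 (exact permutation test, two-sided, p = 0.8). The smallest p that 2 against 3 libraries allow is 0.2. The value of BL_1 was set by the added 0.5 read. Without BL_1 the first difference was -1.77 and without BL_2 it was -0.04, and the second was -0.58 without BL_1 and turned to 0.29 without BL_2. The spread of the 3 cultured libraries, from -4.75 in PEBs to -6.99 in PFFs, was larger than either difference.

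Some markers of other cell types were, like the share of the pair, higher in ES-like cells and PEBs than in PFFs. The liver miRNA ssc-miR-122 stood at 101004 RPM in ES-like cells and 54096 in PEBs against 4.14 in PFFs, 1767 in BL_1 and 837 in BL_2. The 2 endothelial markers, ssc-miR-126-3p and ssc-miR-126-5p, summed to 1342 RPM in ES-like cells and 299.9 in PEBs against 166 in PFFs, 106 in BL_1 and 44.6 in BL_2. Both were higher in ES-like cells than in PEBs, unlike the share. The blood markers (5 of 6 in the table) summed to 91.9 RPM in PEBs, 56.3 in ES-like cells and 3.58 in PFFs, the order of the share among cultured libraries, but to 65.4 in BL_2 and 106 in BL_1. Within that list the order was carried by ssc-miR-142-3p and ssc-miR-142-5p (55.8 RPM in PEBs against 10.98 in ES-like cells for the latter), whereas ssc-miR-451 (0.820 against 13.8) and ssc-miR-144 (0.883 against 18.2) had the opposite order. The 4 skeletal muscle markers ranged from 191 RPM in ES-like cells to 2445 in BL_2, with 551 in PEBs and 1019 in PFFs, and did not have the order of the share. Their part in the result was not tested. Reads of mouse feeder cells and of ES-like cells cannot be told apart for these miRNAs in the deposited counts.

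Among the miR-15/16 miRNAs, the balance of the a and b forms also differed between libraries (a comparison chosen after the values were seen). miR-15a held 0 of 221 reads of miR-15a and miR-15b in BL_2, which allows up to 1.36%. It held 14.6% for ES-like cells (12.9 to 16.6%), 15.3% in the PEB library (13.8 to 16.9%) and 37.5% in the PFF library (35.9 to 39.1%). ES-like cells and PEBs overlapped, and PFFs stood apart above them. Per 100 reads of miR-16, PFFs had 6.34 reads of miR-15a, PEBs 3.39 and ES-like cells 2.73. For miR-15b the same measure was 10.6 for PFFs, 18.8 for PEBs, 15.98 for ES-like cells, 23.5 for BL_2 and 12.5 for BL_1. Among BL_2 and the cultured libraries, PFFs thus had the highest miR-15a and the lowest miR-15b relative to miR-16. BL_1, with 3 reads of miR-15b and none of miR-15a against 24 of miR-16, could not be ranked. With only the larger miR-16 row as the base, the miR-15a values were 11.52 for PFFs, 5.35 for PEBs and 4.06 for ES-like cells, and those of miR-15b 19.2, 29.7 and 23.7, with 32.7 for BL_2, so this order stayed. miR-15a and miR-15b are close in sequence, as are miR-16 and miR-195, and how the counting treated reads that match several precursors was not given in the sources used here, so counts split between such names are uncertain.

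The 2 precursor rows of miR-16 were not counted alike. mir-16-1 held 71.8% of the miR-16 reads in BL_2 (68.8 to 74.5%), against 67.3% for ES-like cells (66.3 to 68.4%), 63.3% in the PEB library (62.4 to 64.3%) and 55.1% in the PFF library (54.4 to 55.7%). In BL_1 it held 13 of 24 reads (54.2%, 35.1 to 72.1%). The intervals of ES-like cells, PEBs and PFFs were apart, and BL_2 lay above them. Both rows give the same mature miRNA, so the files do not show how many reads came from each gene.

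Within the miR-195/miR-497 cluster, the shares were closer together. miR-497 held 39.1% of the pair's reads for ES-like cells (32.7 to 45.9%), 32.1% in the PEB library (27.8 to 36.8%) and 42.8% in the PFF library (36.0 to 49.8%). The 3 intervals overlapped, those of PEBs and PFFs only narrowly, and overlap alone does not show that the shares were alike. In BL_2 all 6 reads of the pair were of miR-195, which with so few reads sets no useful limit.

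**Figure D4:**
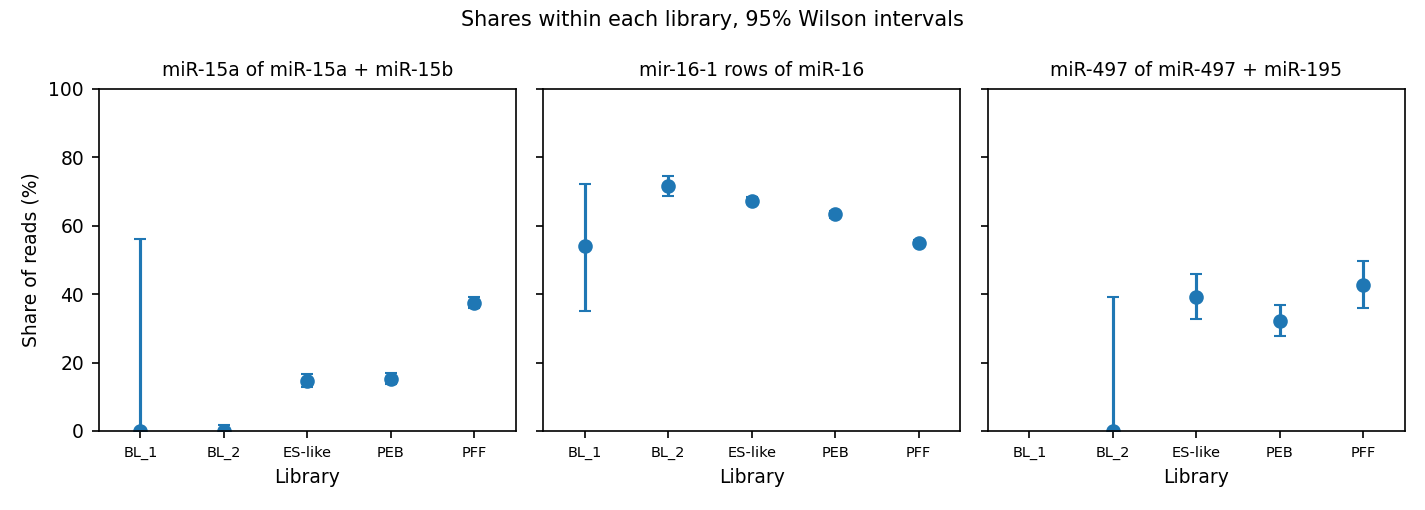
Shares of reads within each library with 95% Wilson intervals, for miR-15a among miR-15a and miR-15b (left), the mir-16-1 row among miR-16 reads (middle) and miR-497 among miR-195 and miR-497 (right, with no reads in BL_1). The miR-15a share is 0% in BL_2 and 37.5% in PFFs, the mir-16-1 share is 71.8% and 55.1% in the same libraries, and the miR-497 shares of the cultured libraries overlap.

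The embryo libraries were compared with the cultured libraries. As counted, RPM in both BL libraries was below that in all 3 cultured libraries for each of the 5 miRNAs, and so it was for 41.9% of the 279 miRNAs tested. BL_1 had no read of miR-15a, miR-195 or miR-497, and its limit of 26.4 RPM lay above the level of miR-15a in PEBs and of the other 2 in each cultured library, so for these 3 the order rests on BL_2. For miR-15b the order rested on a narrow gap between BL_2 (79.4 RPM) and PFFs (82.9). With TMM library sizes both BL libraries were below for 3 of the 5, but not for miR-15b or miR-16, and for 34.8% of all. With median-of-ratios factors they were below for 4 of the 5, but not for miR-15b (86.2 in BL_2 against 79.9 in PEBs), and for 38.0% of all. By edgeR's quasi-likelihood test with Benjamini-Hochberg adjustment over all 279 miRNAs, none of the 5 was called at an adjusted p under 0.05, against 11.1% of all miRNAs. An unadjusted p under 0.05 was found for 2 of the 5 and for 98 of the 279. These 2, miR-15a and miR-497, had no BL read and passed the filter only through the cultured libraries, so no conclusion is drawn from that count. The median log2 fold change (BLs minus cultured) was -2.04 over the 5 and -0.84 over all 279. The median over the 5 is the value of miR-195, which had 6 BL reads. miR-15a and miR-497, without a BL read, lie below it and set its place. No conclusion about the 5 is therefore drawn from their median on any scale. Both medians moved with the scaling or tool. They were -2.45 and -1.13 with median-of-ratios factors, -2.91 and -1.42 with library sizes alone, and -1.48 and -0.48 with limma. Without BL_1 they were -1.63 and -0.48. Without BL_2 the median over all was -1.97, and none is given for the 5, since 3 of them then have no BL read. Without PFFs the median over all was -0.29. For miR-16 the log2 fold change was -1.14 (edgeR, standard error 0.91, adjusted p = 0.369), and for miR-195 it was -2.04 (edgeR, standard error 1.22, adjusted p = 0.251). miR-15b had -0.52 (edgeR, standard error 0.95, adjusted p = 0.699), above the median of all miRNAs. Leaving out a library moved these values. miR-16 had -0.50 without BL_1 and -1.98 without BL_2, and miR-195 had -1.63 without BL_1, while without BL_2 no BL read of miR-195 remains and no fold is given. miR-15b had 0.26 without BL_1 and -2.13 without BL_2.

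miR-15a and miR-497, without a read in BLs, had adjusted p = 0.0540 and 0.0801 by edgeR. Both passed the filter only through the cultured libraries, the group where they are higher. That selection bears on every p given for them in this grouping, so no conclusion is drawn from these tests. The fitted fold changes of miR-15a and miR-497 depend on the prior count and are not given. DESeq2 called miR-15a (adjusted p = 0.000617, under the same selection) and none of the other 4, against 35.8% of all miRNAs. Across 7 alternatives that kept miR-15a in the test, its adjusted p ranged from 0.000617 to 0.268 and it was called in 4. The number of miRNAs called by edgeR, 31, was 0 without BL_1 or without BL_2, 16 without ES-like cells, 3 without PEBs and 89 without PFFs, and miR-15b, miR-16 and miR-195 were called in none of these. miR-15a and miR-497 did not pass the filter once a cultured library was left out, and they were not called without BL_1 or BL_2.

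Pluripotent (BLs and ES-like cells) and differentiated (PEBs and PFFs) libraries, the second grouping of the study, overlapped for each of the 5. miR-16 averaged 572 ± 518 RPM (SD, n = 3) in the former and 681 ± 144 (SD, n = 2) in the latter, and miR-195 averaged 7.31 ± 10.8 and 11.0 ± 9.73. edgeR called none of the 5 and 0% of the 279 miRNAs (21 had an unadjusted p under 0.05). DESeq2 gave no p for miR-15a, called none of the other members and called 5.02% of all. The 5 had adjusted p from 0.674 (miR-15a, log2 fold change -2.36, standard error 1.88) to 0.983 (miR-15b, -0.14) by edgeR. The median log2 fold change (pluripotent minus differentiated) was -0.56 over the 5 and -0.06 over all. Without BL_1 these were -0.23 and 0.19, and without BL_2 -0.40 and -0.24. With a cultured library left out only miR-15b, miR-16 and miR-195 were tested, and the medians of these 3 and of all were -1.66 and -0.89 without ES-like cells, -0.74 and -0.02 without PEBs and 0.19 and 0.17 without PFFs, so their sign is not settled. Without ES-like cells this grouping is the same as BLs against PEBs and PFFs, so its 16 calls are those given above.

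The 2-fold rule of the study was then applied to RPM, with BLs as the mean of both libraries. The 3 comparisons with BLs share the BL libraries, and no p can be given with 1 library per cultured cell type. All 5 miRNAs were counted as more than 2-fold higher in ES-like cells than in BLs, as were 53.9% of the miRNAs with at least 10 reads in either. In all 3 comparisons with BLs, miR-15a and miR-497 had no BL read and so no ratio. They were counted as higher and reached 10 reads only through the cultured libraries, so no conclusion is drawn from their part in these counts. Against the limit of 1.04 RPM over both BL libraries, miR-497 in PFFs was at least 2.96-fold higher. The limit of BL_1 alone, 26.4 RPM, lay above that level. In ES-like cells miR-16 was 4.24 times as high as in BLs, 5.52 times BL_1 (3.71 to 8.62) and 3.44 times BL_2 (3.21 to 3.69). miR-195 was 9.17 times as high as in BL_2 (4.10 to 25.5). With TMM library sizes 4 of the 5 were past 2-fold in ES-like cells against BLs. On that scale the ratio to BL_2 was 1.01 for miR-15b, 1.48 for miR-16 and 3.95 for miR-195. In PEBs all 5 were past 2-fold, against 53.2% of all, but miR-15b (2.06) and miR-16 (2.11) only just, and against BL_2 alone they stood at 1.37 and 1.71. In PFFs 4 of the 5 were past 2-fold, against 40.7% of all, and miR-15b was at 1.57. Against BL_2 alone, miR-195 in PFFs was at 1.90 (0.846 to 5.29), so 3 of the 5 were then past 2-fold.

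Between cultured libraries, the 5 were spread on both sides of the median miRNA. From ES-like cells to PEBs only miR-16 was lower by more than 2-fold, at 0.497 times (0.482 to 0.513), where 23.5% of all miRNAs were, and it was not past 2-fold on any other scale. miR-195 stood at 0.903 times (0.730 to 1.12), close to the median miRNA at 0.880. From ES-like cells to PFFs, miR-15b, miR-195 and miR-497 were lower by more than 2-fold, against 51% of all and a median of 0.492. miR-15b was past 2-fold in RPM only, with ratios from 0.784 to 1.03 on the other scales. miR-497 was not past 2-fold with TMM (0.516) or with predicted loci in the total (0.560), while miR-195 was on each scale. Of 292 miRNAs, 89 had a lower ratio than miR-195 and 67 had a higher ratio than miR-15a. From PEBs to PFFs, miR-15a was 2.53 times as high (2.24 to 2.87), where 16.6% of all miRNAs were past 2-fold. miR-195 at 0.230 times and miR-497 at 0.363 times were lower by more than 2-fold, where 44.7% of all were. Of 295 miRNAs 43 had a higher ratio than miR-15a and 89 a lower ratio than miR-195. With TMM, with median-of-ratios factors and after removal of the most abundant miRNA, miR-497 stood at 0.678, 0.721 and 0.617 times, no longer past 2-fold. On the same scales miR-16 was past 2-fold, at 2.53, 2.69 and 2.30 times.

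**Figure D5:**
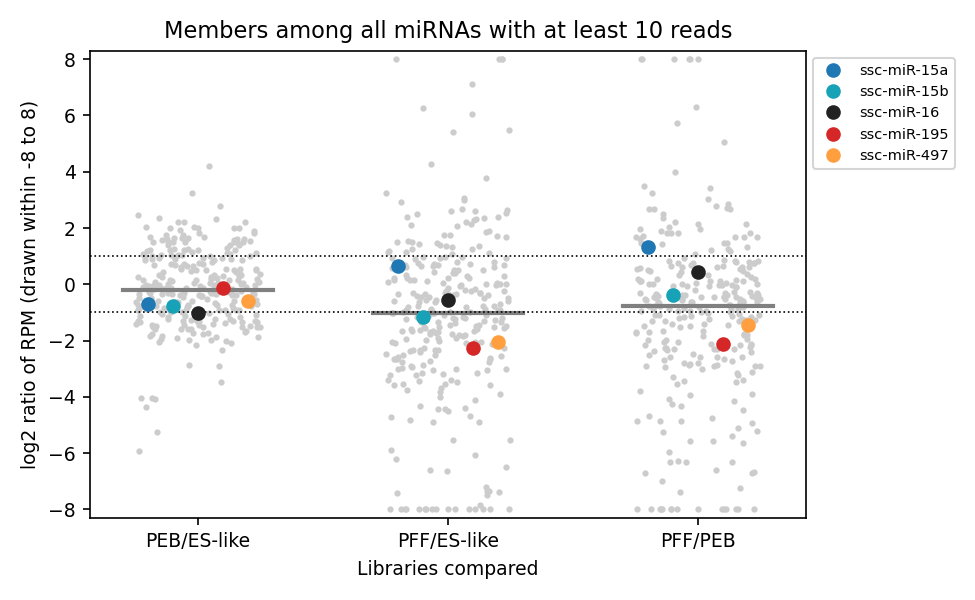
Log2 ratio of RPM between pairs of cultured libraries for each miRNA with at least 10 reads in either library (grey, medians as grey lines, values beyond 8 drawn at the edge), with the 5 miRNAs in colour and dotted lines at 2-fold. In both comparisons with PFFs, miR-15a lies above and miR-195 and miR-497 lie below the median, and the 5 stay close together from ES-like cells to PEBs.

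Other miRNAs of the extended miR-15/miR-107 group, which share all or part of the seed, were also measured. ssc-miR-103, known as a regulator of insulin sensitivity, ranged from 7990 RPM in PFFs to 28078 in PEBs, above miR-16 in each library. ssc-miR-107, its close relative, ranged from 240 RPM in PFFs to 511 in PEBs. ssc-miR-424-5p had 26.4 RPM in BL_1 and 23.0 in BL_2, against 74.1 for ES-like cells, 136 in the PEB library and 73.1 in the PFF library, so BL_2 (17.7 to 29.4) was lower than the cultured libraries, whereas BL_1 with 3 reads (5.44 to 77.1) could not be told from ES-like cells or PFFs. ssc-miR-503, from the same cluster as miR-424, had 352 RPM in BL_1 and 565 in BL_2, against 156 for ES-like cells, 362 in the PEB library and 131 in the PFF library. None of these 4 was called by edgeR in either grouping. Their smallest adjusted p was 0.217, for ssc-miR-503 between BLs and cultured cells (log2 fold change 1.64, standard error 0.88, edgeR). This fold change was 2.29 without BL_1, 0.80 without BL_2, 0.78 without ES-like cells, 1.66 without PEBs and 1.62 without PFFs.

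Profiles over the 5 libraries were compared by the root mean square difference of centred log2(RPM + 1), a description among 242 miRNAs with a mean of at least 10 RPM. Those most like miR-16 were ssc-miR-34a (0.25), ssc-miR-331-3p (0.28) and ssc-miR-455-3p (0.32), where the median miRNA was at 1.64. Those most like miR-195 and miR-497 summed were ssc-miR-769-3p (0.24), ssc-miR-1306-3p (0.38) and ssc-miR-18a (0.38), where the median was at 1.84. In BL_1 the pair, ssc-miR-769-3p and ssc-miR-1306-3p had no read, and ssc-miR-331-3p, ssc-miR-455-3p and ssc-miR-18a had 1 read each, so likeness there is set in part by the low depth and the added 1 RPM. ssc-miR-34a had 70.3 RPM in BL_1, 169 in BL_2 and 492 in ES-like cells, and ssc-miR-18a had 683 RPM in ES-like cells and 441 in PEBs against 92.3 in PFFs.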

How the data were processed

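Small RNA libraries were prepared with the NEXTFLEX kit and sequenced on a HiSeq2500. The authors removed short reads and reads without adapter, trimmed with cutadapt 1.10, aligned with Bowtie 1.1.1 to Sscrofa10.2 (submitters' processing notes) and counted miRBase miRNAs with miRDeep2. The deposited table holds raw read counts, 1 row per mature miRNA and precursor (493 rows). A table of predicted loci was used only for 1 alternative total, with the larger count in 33 cells that held 2. Its 10 further columns per library were not used.

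Counts were summed per mature name (1 row is duplicated and both copies were kept) and expressed as reads per 1000000 mature miRNA reads (RPM). Groupings were tested with edgeR 4.0.16 (quasi-likelihood, TMM, more than 5 reads in at least 3 libraries, R 4.3.3), tested on simulated data, with DESeq2 1.42.0 and limma 3.58.1 as alternatives. The groupings pool different cell types, and PEBs came from the ES-like line, so p-values measure the spread over such libraries. Whether the BL pools were separate cultures is not given in the sources used here. Shares have 95% Wilson, levels 95% Poisson and ratios exact 95% intervals (scipy 1.17.1). Named miRNAs were the 5, 4 relatives of the miR-15/miR-107 group and 2 sets of alike profiles. These sets were the 3 profiles most like miR-16 and the 3 most like miR-195 and miR-497 summed. The members, lists and tests were chosen with earlier results of these data known.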

Additional observations from a re-analysis of the deposited data

How the results depend on the processing

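The count of the 5 miRNAs with their highest level in ES-like cells, 4 in RPM, was 2 with TMM library sizes and 0 with predicted loci in the total. The count with both BL libraries below all cultured ones was 3 with TMM instead of 5. Past 2-fold in PEBs against BLs were 3 with TMM, with median-of-ratios factors, after removal of each library's most abundant miRNA and without BL_1 (5 without BL_2). Each of these counts against BLs includes miR-15a and miR-497, which had no BL read. Without BL_2, miR-195 had none either. Lower in PEBs than in ES-like cells were 0 on each of these scales and with predicted loci. Lower in PFFs than in ES-like cells was 1 with TMM and 1 with predicted loci, and from PEBs to PFFs 2 were higher and 1 lower with TMM, with median-of-ratios factors and after that removal. A pseudocount of 1 RPM left the 2-fold counts as they were. With the larger precursor row in place of the sum, miR-16 levels fell and both counts of highest and lowest libraries stayed the same.

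The log2 ratio of the clusters, pluripotent minus differentiated, ranged from -0.58 to 0.29 when a BL library was left out. Between BLs and cultured cells, edgeR called 55 miRNAs with median-of-ratios factors, 57 with library sizes alone, 51 without the filter, and from 0 to 89 with a library left out, and DESeq2 called 100. Between pluripotent and differentiated libraries, DESeq2 called 14 and edgeR from 0 to 16 with a library left out, where the 16 are the same fit as BLs against PEBs and PFFs. A lone library of a group was then assumed to vary like the others. In the latter grouping miR-15b had a log2 fold change of 0.044 with library sizes alone. With a library left out it ranged from -1.01 to 0.33, miR-16 from -1.66 to 0.22 and miR-497 from -0.29 to 0.17. In the former miR-15b ranged from -2.13 to 0.26. None of these was called. The cause of these changes was not tested. With a pseudocount of 10 RPM, 2 of the 3 profiles most like miR-16 and 2 of the 3 most like the pair were shared. No paired analysis was possible because only BLs had more than 1 library. BL_1, with 27 reads of the 5, limits what can be said of BLs.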
